A study of Schizosaccharomyces pombe with 261 samples.

Results

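The core histone genes of fission yeast (Schizosaccharomyces pombe) were followed through the first minutes at 37.5 °C. The 10 genes were taken by their systematic identifiers from a table of 7015 genes: hta1 (SPCC622.08c) and hta2 (SPAC19G12.06c) for histone H2A, htb1 (SPCC622.09) for H2B, hht1 (SPAC1834.04), hht2 (SPBC8D2.04) and hht3 (SPBC1105.11c) for H3, hhf1 (SPAC1834.03c), hhf2 (SPBC8D2.03c) and hhf3 (SPBC1105.12) for H4, and pht1 (SPBC11B10.10c) for the variant H2A.Z. All 10 were found, and all 10 passed the filter on low counts, with at least 433 counts in every library. Polyadenylated mRNA was sequenced in 39 libraries, in 13 groups of 3. Another 222 of the 261 samples were not analysed here.

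The libraries belong to series named RNA1, RNA2 and RNA3 in the labels. Series RNA3 held the labels atf1Δ and pcr1Δ, each unheated and after 5 min of heat, and the label clr4Δ at 0, 2.5 and 5 min. Series RNA1 held the wild type (WT) at 0, 5 and 25 min, and series RNA2 held WT at 0, 2.5 and 5 min. No WT library belongs to RNA3, so the deletion label and the series cannot be told apart in any comparison with WT. Every group, WT included, was of mating type h+, with the marker alleles ade6-DN/N and leu1-32, the allele ura4-DS/E, and the reporter insertions imr1L::ura4+ and otr1R::ade6+. The deletion groups carried, in addition, atf1Δ::KanMX6, pcr1Δ::KanMX6 or clr4Δ::NatMX6. Cultures were in YES medium at 30 °C and in mid-log phase, and 0 min means cells harvested without heating. The labels number the replicates but do not call them separate cultures, so each p-value measures only the spread between these libraries.

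Core histones form the octamer around which DNA is wrapped: H3 and H4 make its central tetramer, and H2A–H2B dimers complete it. In fission yeast each H3 gene faces an H4 gene across a shared upstream region, htb1 faces hta1 in the same way, and hta2 stands alone. Their transcription is known to peak in S phase, driven by the GATA-type factor Ams2, and their mRNAs are polyadenylated, unlike those of animal replication-dependent histones. H2A.Z replaces H2A in some nucleosomes, and its gene is not known as an S-phase gene. Atf1 and Pcr1 are bZIP proteins that bind DNA together during stress, and Clr4 methylates lysine 9 of histone H3 in heterochromatin.

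The upstream regions are shown because the 9 genes other than pht1 share a box there, whatever their response to heat. A tandem repeat of AACCCT, with no base between its copies, was found on either strand within 500 bases before the start codon of all 9, at 5 places in the genome. The same tandem stood before 18 of 5112 protein-coding genes (0.352%). The other 9 were hsp90, ssa1 and ssa2, which encode heat-shock chaperones, and tbp1, tif51, eft201, spi1, ppc89 and SPAC27E2.11c. A single AACCCT was found before 15.2% of the 5112 genes. The windows of 7 of the genes hold 30 bases each and are from RefSeq, build ASM294v3, with the box in capitals.
hta2 (chrI:4053362-4053391, minus strand): atccatcaaAACCCTAACCCTgtatattgc
hht1 and hhf1 (chrI:4699643-4699672, plus strand): ctgcatcaaAACCCTAACCCTgcttttgat
hht2 and hhf2 (chrII:1365051-1365080, minus strand): gtcaatcacAACCCTAACCCTgatttaaga
hht3 and hhf3 (chrII:3529618-3529647, plus strand): tttgatcacAACCCTAACCCTttaattaaa

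The box lay 98 to 267 bases before the start codons of these 7 genes, and the start codons of the facing pairs were 561 bases apart for hta1 and htb1, 432 for hht1 and hhf1, 334 for hht2 and hhf2 and 237 for hht3 and hhf3. The sequence TGACGT, the core of the element that Atf1–Pcr1 dimers are known to bind, stood in the same window before 4 of the 10 genes: the facing pairs hta1–htb1 and hht3–hhf3. Each pair shares 1 match, which is counted for both of its genes. TGACGT was found, on either strand, before 408 of 5112 genes (7.98%). The full palindrome TGACGTCA was before none of the 10 and before 0.313% of all genes. These motifs were searched with the expression values known, and a match is a description of the letters only. The match at hht3–hhf3, 10 bases from the box, is shown with TGACGT in capitals.
hht3 and hhf3 (chrII:3529637-3529666, plus strand): ctttaattaaatTGACGTaagttaataggg

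The libraries held 6573143 to 12588425 counts in genes, of which the 10 histone genes took 0.363 to 0.739%. Levels are given in CPM (the counts-per-million scale, with TMM scaling). The mRNAs of the deleted genes did not go to 0 in the libraries that carry their labels: atf1 averaged 128 CPM in unheated libraries labelled atf1Δ, against 131 (RNA1) and 213 CPM (RNA2) in WT, and pcr1 averaged 42.3 CPM in those labelled pcr1Δ, against 64.1 and 71.7 CPM in WT. After 5 min of heat atf1 averaged 168 CPM with the label atf1Δ, against 718 and 572 CPM in WT, and pcr1 averaged 53.3 CPM with the label pcr1Δ, against 363 and 289.9 CPM in WT. The clr4 mRNA went against its label, with 175 CPM in unheated libraries labelled clr4Δ, against 51.1 and 43.7 CPM in WT. Groups are therefore named by their labels throughout. WT itself differed between series: at 0 min, hhf1 averaged 468 ± 36.1 CPM in RNA1 and 708 ± 74.7 CPM in RNA2 (SD, n = 3 each).

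By sequence the copies could be told apart. The coding regions of the 3 H3 genes were 88.3 to 92.7% identical and those of the 3 H4 genes 91.3 to 93.3%, yet every 50-base stretch of the 10 transcripts was unique in the genome except 6 stretches of hhf2 (0.803%) and 6 of hhf3 (1.05%). Overlapping genes limit the counts more, since the strand setting of the counting is not given in the sources used here. The whole of hta1 lies within the non-coding RNA SPNCRNA.1194 on the other strand, which had 3.06 to 13.3 CPM in the 39 libraries. The whole of hhf3 lies within SPNCRNA.1611 on the other strand, which had 0.514 to 20.8 CPM. Partial overlaps on the other strand include htb1 with sec5 (258 bases) and hht3 with rav1 (46 bases). Overlaps on the same strand do not depend on that setting: SPNCRNA.1432 shares 79 bases with hhf2 and SPNCRNA.1611 shares 59 with hht3.

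Levels per length placed htb1 highest and pht1 lowest in unheated WT. In series RNA1 at 0 min htb1 had 1069 ± 74.6 CPM per kb (SD, n = 3), above every other member. Below it hht1 (613 ± 51.7), hhf1 (607 ± 46.8), hta2 (570 ± 42.5), hht2 (528 ± 98.6), hht3 (475 ± 21.6) and hta1 (428 ± 56.8 CPM per kb) followed in an order in which neighbours lay within their SDs. The H4 copies hhf3 and hhf2 had 365 ± 38.0 and 235 ± 32.4 CPM per kb, and pht1 had 62.8 ± 3.80 CPM per kb. In RNA2 htb1 (1045 ± 36.0) was followed by hhf1 (917 ± 96.7) and hht1 (821 ± 42.7 CPM per kb), and pht1 was again lowest (68.5 ± 4.47 CPM per kb). Summed over copies, H3 mRNA was 1.34 ± 0.0183 times H4 mRNA per length in RNA1 and 1.17 ± 0.0495 times in RNA2.

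**Figure D1:**
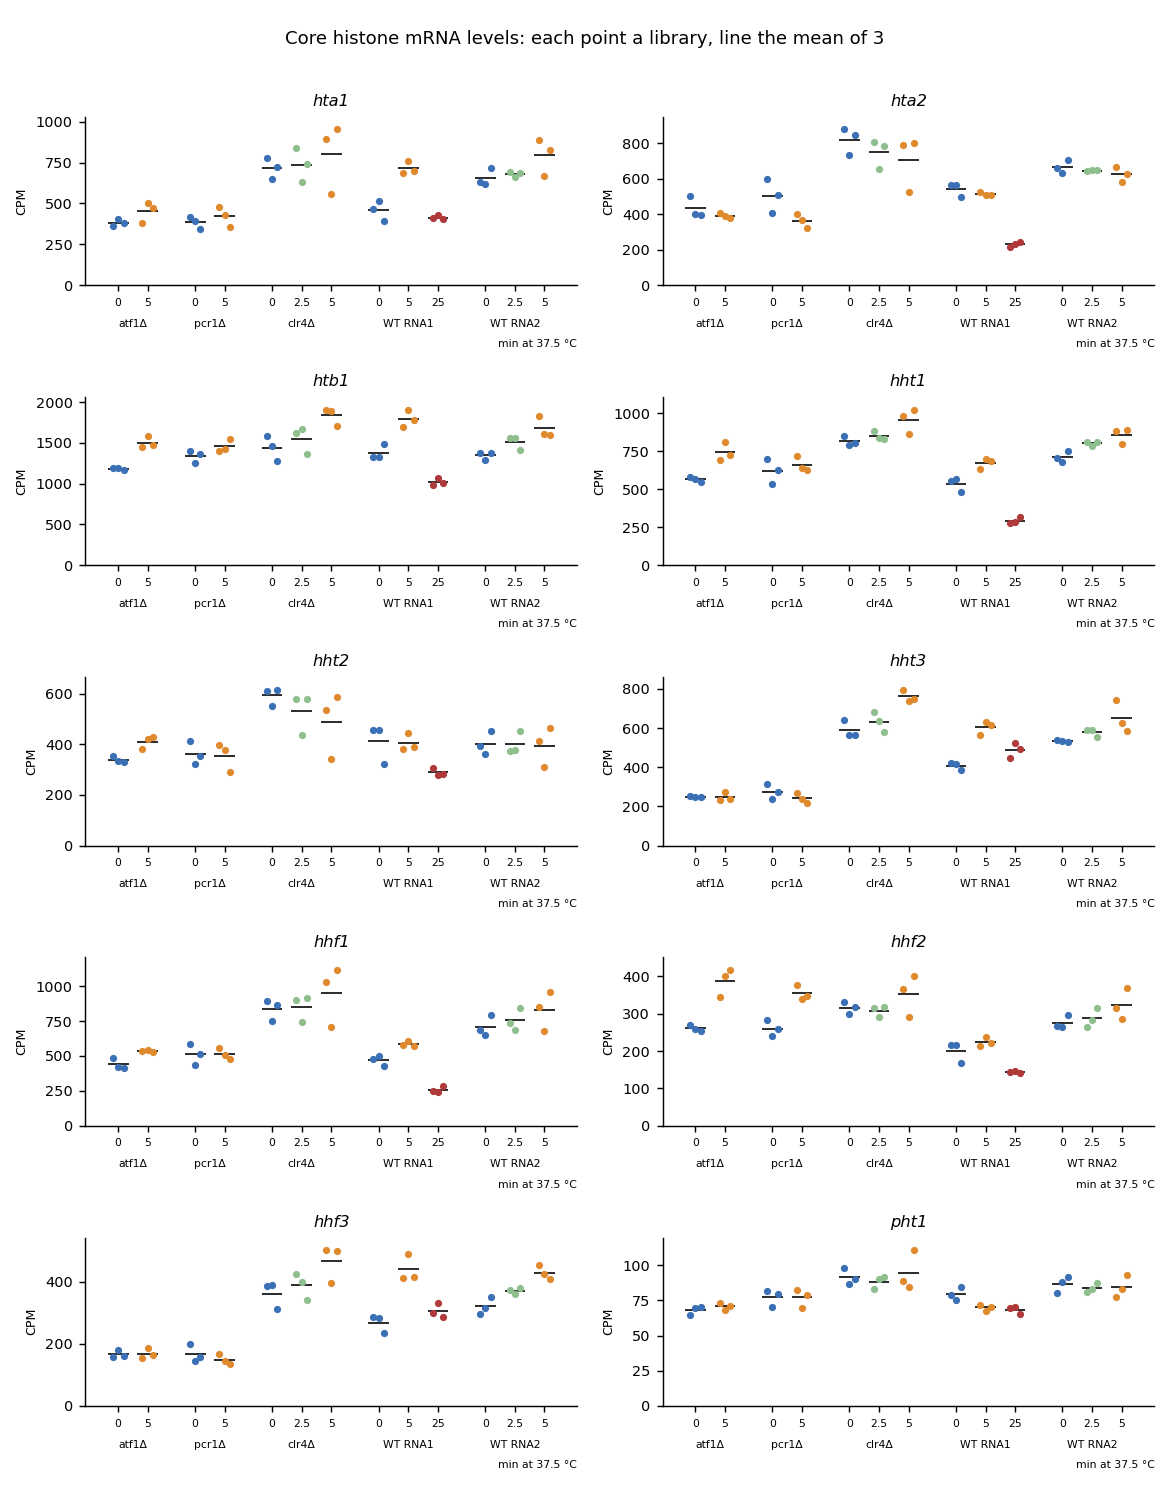
Level of each core histone mRNA (CPM, linear axes from 0) by label and minutes at 37.5 °C; points are libraries and lines the means of 3. The hht3 and hhf3 panels show libraries labelled atf1Δ and pcr1Δ at 133 to 314 CPM and all others at 235 to 796 CPM, and the 25 min libraries stand below the 0 and 5 min libraries of series RNA1 in hta2, htb1, hht1, hht2, hhf1 and hhf2.

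After 5 min of heat 7 of the 10 histone mRNAs rose in WT and none fell. In this comparison 50.6% of the 6172 genes tested were called at an adjusted p under 0.05, 25.7% as higher (edgeR quasi-likelihood test, Benjamini-Hochberg adjustment over all genes, as for every log2 change that follows). The median log2 change of the 10 was 0.29, beside -0.01 over all genes. No member's change exceeded 1.48-fold. Scaling by library totals in place of TMM moved the median of all genes by -0.17, and 28.2% of the called genes then rose, in place of 50.8%; hhf1 (0.11) and hhf2 (0.04) did not pass on that scale and hta2 (-0.25) and pht1 (-0.27) fell.

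The H4 gene hhf3 had 412, 489 and 416 CPM at 5 min, against 285, 282 and 235 CPM at 0 min, in RNA1. In RNA2 it had 453, 423 and 408 CPM at 5 min, against 296, 314 and 350 CPM at 0 min. Every heated library was above every unheated one (log2 change 0.57, SE 0.08, adjusted p = 6.3e-07). Its neighbour hht3, an H3 gene, had 567, 629 and 617 CPM at 5 min, against 419.6, 418 and 387 CPM at 0 min, in RNA1. In RNA2 hht3 had 743, 626 and 584 CPM at 5 min, against 537, 533 and 527 CPM at 0 min, so the groups were separate in each series (log2 change 0.43, SE 0.07, adjusted p = 2.2e-06). SPNCRNA.1611, which covers hhf3 on the other strand, averaged 10.4 CPM at 5 min, against 1.30 CPM at 0 min, in RNA1. It had 2.42 to 2.74 CPM, against 0.877 to 1.02 CPM, in RNA2. Its part in the counts of hhf3, and of hht3, with which it shares 59 bases, was not tested.

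The H2A gene hta1 had 688, 760 and 699 CPM at 5 min, against 468, 514 and 394 CPM at 0 min, in RNA1. In RNA2 hta1 had 890.3, 666 and 826 CPM at 5 min, against 629, 617 and 715 CPM at 0 min, and 1 heated library fell within the range of the unheated ones. The joint log2 change was 0.46 (SE 0.10, adjusted p = 0.00027), and with RNA2 alone it was 0.28 and did not pass the test (adjusted p = 0.16). Its partner htb1, for H2B, rose by 0.35 (SE 0.06), with 1599 to 1901 CPM in the 6 heated libraries, against 1296 to 1491 CPM in the 6 unheated ones.

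The facing pair hht1 and hhf1 rose by 0.30 (SE 0.06) and 0.27 (SE 0.09) on the log2 scale; the hhf1 call was lost in RNA2 alone (0.23, adjusted p = 0.23) and without replicate 3 of RNA2 at 5 min (0.19, adjusted p = 0.094). In the remaining pair hhf2 had a log2 change of 0.19 (SE 0.07, adjusted p = 0.027), which did not pass within either series alone (adjusted p = 0.23 in RNA1 and 0.10 in RNA2) or without replicate 3 of RNA1 at 0 min, replicate 2 of RNA1 at 5 min, replicate 1 or 2 of RNA2 at 0 min or replicate 3 of RNA2 at 5 min (0.12 to 0.18), and hht2 had -0.03 (SE 0.11). Neither hta2 (-0.09, SE 0.09) nor pht1 (-0.11, SE 0.06) passed the test. No member's response differed between the 2 WT series at an adjusted p under 0.05, where 9.28% of all genes did (edgeR; unadjusted p under 0.05 for hht3 alone, and none by DESeq2); the differences for hht3 and hhf3 (RNA1 minus RNA2) were 0.28 and 0.30. With the replicate number of each time course as a block, hht3 (0.28, adjusted p = 0.033) and hta1 (0.37, adjusted p = 0.031) passed, both with the larger response in RNA1. Calls over all genes went from 573 to 1406 of 6172 with that block.

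At 2.5 min, measured in RNA2 only, none of the 10 was called, and 1.73% of all genes were. In edgeR 0 of 10 had an unadjusted p under 0.05, and DESeq2 also called none. The log2 changes ran from -0.05 (pht1) to 0.21 (hhf3, SE 0.12). Between 2.5 and 5 min none was called by edgeR (unadjusted p under 0.05 for 0 of 10) or DESeq2, where 13.5% of all genes were.

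After 25 min, measured in RNA1 only, copies of H3 were called in opposite directions. Against 0 min, 7 members fell and 1 rose, where 67.3% of all genes were called, 33.5% as lower and 33.9% as higher. The largest fall was that of hta2, with 217, 235 and 246 CPM at 25 min, against 568, 565 and 496 CPM at 0 min (log2 change -1.22, SE 0.13, adjusted p = 4.8e-10). The pair hht1 and hhf1 fell by 0.86 (SE 0.09) and 0.87 (SE 0.14) on the log2 scale; hht1 had 277, 284 and 319 CPM at 25 min, against 551, 567 and 482 CPM at 0 min. All 3 heated libraries lay below all 3 unheated ones for each of these genes.

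Smaller falls were those of hht2 (-0.51, SE 0.16), hhf2 (-0.49, SE 0.10), htb1 (-0.44, SE 0.09) and pht1 (-0.22, SE 0.09, adjusted p = 0.021). The pht1 call was lost by library totals (-0.18, adjusted p = 0.10) and without replicate 3 at 0 min (-0.18, adjusted p = 0.099) or replicate 3 at 25 min (-0.19, adjusted p = 0.084). The level of hta1 was 413 ± 13.9 CPM at 25 min, against 459 ± 60.8 CPM at 0 min (SD, n = 3 each), and did not pass (-0.15, SE 0.14). By contrast hht3 rose, with 445, 526 and 495 CPM at 25 min, against 419.6, 418 and 387 CPM at 0 min (0.26, SE 0.10, adjusted p = 0.017), a call lost without replicate 2 at 25 min (0.18, adjusted p = 0.15) or replicate 3 at 0 min (0.22, adjusted p = 0.070). Its partner hhf3 had a log2 change of 0.19 (SE 0.12, adjusted p = 0.15) and passed with the replicate number as a block (adjusted p = 0.039).

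From 5 to 25 min, 9 of the 10 fell, where 58.1% of all genes were called and 29.6% fell. The falls ran from 0.31 (hht3, SE 0.10) to 1.19 (hht1, SE 0.09) on the log2 scale. The exception was pht1 (-0.04, SE 0.09). Scaling by library totals moved the median of all genes by 0.27; on that scale the falls of hht3 (-0.05, adjusted p = 0.67) and hht2 (-0.23, adjusted p = 0.11) did not pass, and pht1 rose (0.22, adjusted p = 0.0497). In a culture, fewer cells making these mRNAs and less mRNA in each cell cannot be told apart.

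**Figure D2:**
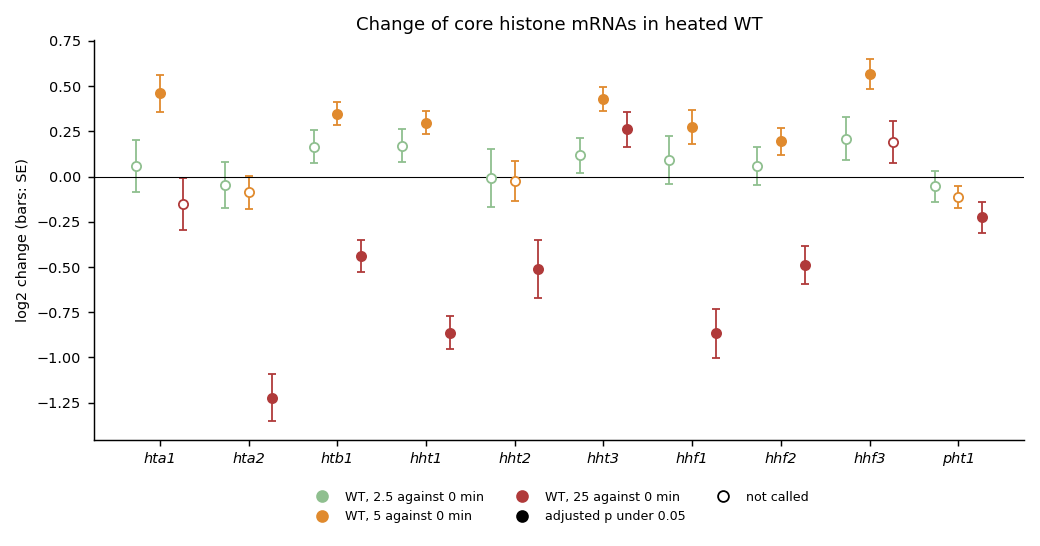
Log2 change of each core histone mRNA in WT after 2.5, 5 and 25 min of heat against 0 min of the same series; bars are SE and filled points passed at an adjusted p under 0.05. The 5 min points reach 0.57 (hhf3) and the 25 min points run from 0.26 (hht3) to -1.22 (hta2).

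The make-up of the mRNA pool for each histone was compared next, and 8 of 8 shares passed at 5 min in WT. Each gene's counts per length were taken as a percent of the summed counts per length of the genes for the same histone, a quantity that does not depend on library scaling. At 5 min hta1 gave 54.1 ± 2.2% of H2A mRNA, against 44.7 ± 2.37% at 0 min (SD over the 6 WT libraries of both series, n = 6 each; exact permutation test within series, 2-sided, adjusted over the 8 shares, p = 0.02). The share was higher at 5 min in all 6 same-numbered pairs, and hta2 made up the rest, so its test repeats that of hta1. Shares within each histone sum to the whole, and the 8 tests are therefore not independent.

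Among H4 genes hhf3 gave 33.0 ± 5.06% at 5 min, against 28.2 ± 2.40% at 0 min, higher in 5 of 6 pairs (exact permutation test, adjusted p = 0.032). Among H3 genes hht3 gave 34.5 ± 2.43% at 5 min, against 30.6 ± 2.0% at 0 min, also higher in 5 of 6 pairs (exact permutation test, adjusted p = 0.04). The shares of hht2 (24.3%, against 29.4%), hhf2 (17.4%, against 19.3%) and hhf1 (49.6%, against 52.5%) were lower at 5 min, and that of hht1 was 41.2%, against 39.9% at 0 min (exact permutation tests, adjusted p = 0.02, 0.02, 0.04 and 0.045). With the signs flipped within same-numbered pairs, none of the 8 passed (exact test, adjusted p = 0.0625 for each). The shares of hta1, hta2, hht1 and hht2 moved in the same direction in all 6 pairs. They thus already had the smallest p that this test can give with 6 pairs, and it cannot decide whether they hold under pairing. Without replicate 2 of RNA2 at 5 min only the hta1 and hta2 shares passed, and those of hht1, hhf1 and hht3 were lost in 9, 8 and 7 of the 12 fits that left out 1 library. In RNA1 alone the hhf3 share moved by 6.77 percentage points and in RNA2 alone by 2.88, where the exact permutation test of 3 libraries against 3 cannot give a p below 0.1.

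At 25 min in RNA1, hht3, hhf3 and hta1 made up more of their histone's mRNA than at 5 min. The hhf3 share was 45.4 ± 2.95% at 25 min, against 30.2 ± 0.574% at 0 min, and the hht3 share was 44.5 ± 2.55%, against 29.5 ± 1.92% (SD, n = 3 each). The hta1 share was 61.2 ± 1.79% at 25 min, against 42.8 ± 1.74% at 0 min. All 3 heated libraries lay above all 3 unheated ones for each of these shares. Those of hht2 and hhf2 at 25 min were closer to 0 min than those at 5 min: the hht2 share was 32.5, 26.1 and 29.1% at 0, 5 and 25 min, and the hhf2 share was 19.4, 16.2 and 18.2%. The summed H3 mRNA was 1.34 ± 0.0183, 1.23 ± 0.0402 and 1.39 ± 0.0269 times the summed H4 mRNA per length at 0, 5 and 25 min, and summed H2A mRNA was 0.941 ± 0.150, 0.871 ± 0.0337 and 0.799 ± 0.0153 times H2B mRNA.

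**Figure D3:**
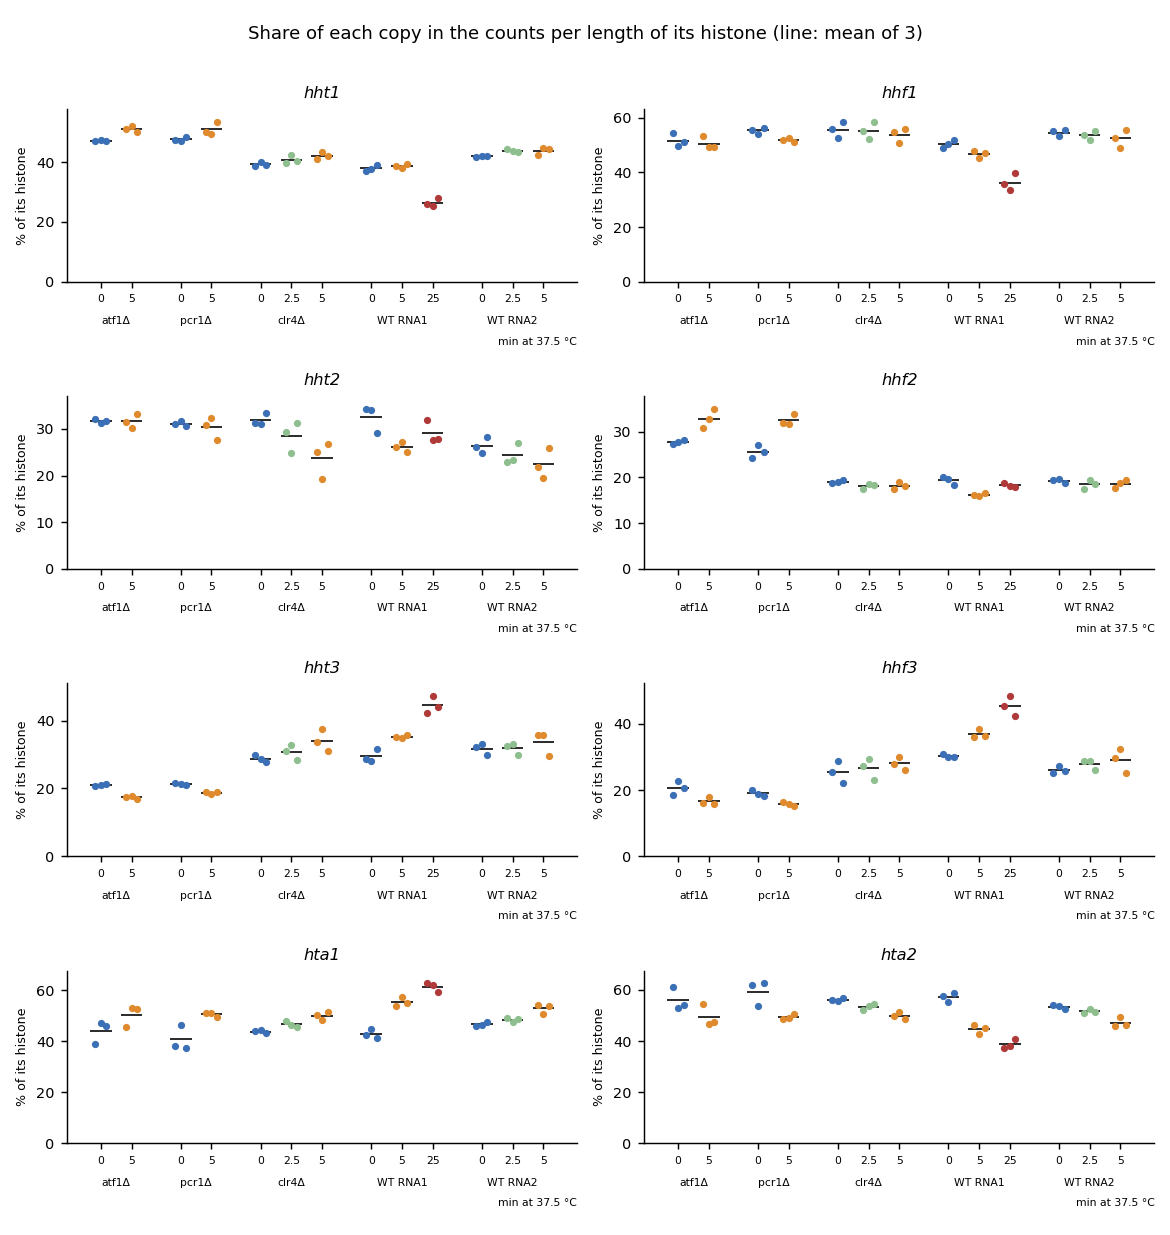
Share of each gene in the counts per length of its histone (percent, axes from 0) by label and minutes at 37.5 °C; points are libraries and lines the means of 3. The hht3 and hhf3 shares climb with time in WT RNA1, to 44.5 and 45.4% at 25 min, and under the labels atf1Δ and pcr1Δ they are lower after heat than before it, where the hhf2 share is 32.8 and 32.4% at 5 min.

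The pair hht3 and hhf3 did not pass the test after 5 min with the label atf1Δ or the label pcr1Δ. With the label atf1Δ, 3 members rose (29.9% of all genes were called, 12.6% as higher): hhf2 (0.57, SE 0.10), hht1 (0.40, SE 0.09) and htb1 (0.34, SE 0.09). By library totals htb1 did not pass (0.17, adjusted p = 0.18). The same libraries gave hht3 233, 274 and 239 CPM at 5 min, against 250.4, 249 and 246 CPM at 0 min (log2 change 0.00, SE 0.10). They gave hhf3 154, 186 and 162 CPM at 5 min, against 157, 181 and 160.0 CPM at 0 min (0.01, SE 0.12). For both genes the heated and unheated libraries overlapped. With the replicate number of the time course as a block, 6 members rose, with hhf1, hht2 and hta1 added. That block took the calls over all genes from 1846 to 2817 of 6172.

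With the label pcr1Δ, hhf2 rose (0.45, SE 0.10) and hta2 fell (-0.47, SE 0.13), where 27.4% of all genes were called, 12.5% as higher and 14.9% as lower. The fall of hta2 did not pass without replicate 1 at 0 min (-0.34, adjusted p = 0.061). The level of hht3 was 268, 237 and 218 CPM at 5 min, against 314, 239.5 and 272 CPM at 0 min, and that of hhf3 was 167, 143 and 133 CPM, against 199, 143 and 158 CPM. The log2 changes were -0.19 (SE 0.10, adjusted p = 0.14) and -0.17 (SE 0.12), and that of hht3 passed with the block (adjusted p = 0.027).

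Tested as a difference between responses, hht3 and hhf3 were the 2 members called as lower than in WT at 5 min. The median difference over the 10 members was 0.01 with the label atf1Δ, beside -0.02 over all genes. With the label pcr1Δ it was -0.25, beside -0.01 over all genes, so lower values there were not limited to the called pair. For the label atf1Δ minus WT the difference was -0.55 for hhf3 (SE 0.15, adjusted p = 0.011) and -0.43 for hht3 (SE 0.12, adjusted p = 0.015), where 8.96% of all genes were called and 7.94% were lower. Both calls were lost without replicate 3 at 5 min of the label atf1Δ (-0.49 and -0.36, adjusted p = 0.061 and 0.097), and that of hht3 without replicate 2 of RNA1 at 5 min (-0.37, adjusted p = 0.053). For the label pcr1Δ minus WT the difference was -0.74 for hhf3 (SE 0.15, adjusted p = 0.00051) and -0.62 for hht3 (SE 0.12, adjusted p = 0.00033), where 7.19% of all genes were called and 6.4% were lower. These 2 calls held in each alternative run, with adjusted p up to 0.0055. Both comparisons use the same WT libraries.

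The other H4 copy, hhf2, had a higher response with the label atf1Δ than in WT, at 0.38 (SE 0.13), and did not pass (adjusted p = 0.058); it did with the block (adjusted p = 0.0029) and with DESeq2 (adjusted p = 0.027). With the label pcr1Δ the block added hta1 (-0.34) and hta2 (-0.37) as lower and hhf2 (0.25, adjusted p = 0.049) as higher than in WT. Over all genes the block took the calls from 553 to 1107 (atf1Δ minus WT) and from 444 to 1088 (pcr1Δ minus WT).

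The libraries labelled clr4Δ share their series with those labelled atf1Δ and pcr1Δ. At 5 min 4 members rose in them, where 30.2% of all genes were called and 16.2% rose: hht3 (0.37, SE 0.10), hhf3 (0.36, SE 0.12), htb1 (0.35, SE 0.09) and hht1 (0.23, SE 0.09, adjusted p = 0.047). The hht1 call was lost in 5 of the 6 fits that left out 1 library (0.18 to 0.23), by library totals (0.16), with no filter (0.23) and in the second files (0.22). That of hhf3 was lost without replicate 3 at 0 min (0.23) or replicate 1 or 3 at 5 min (0.31 each), and that of htb1 without replicate 3 at 0 min (0.24). With the replicate number of the time course as a block hta2 (-0.23, adjusted p = 0.025) and hht2 (-0.31, adjusted p = 0.016) fell. The level of hht3 was 796, 739 and 749 CPM at 5 min, against 642, 563 and 565 CPM at 0 min, with no overlap. The level of hhf3 was 501, 396 and 498 CPM at 5 min, against 384, 389 and 311 CPM at 0 min, also with no overlap.

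Replicate 2 at 5 min of the label clr4Δ stood below the other 2 for several members: it had 559 CPM of hta1 and 707 CPM of hhf1, where the others had 892 and 954 CPM of hta1 and 1034 and 1118 CPM of hhf1. Without it 7 members passed, and without replicate 3 at 0 min only 1 did. Leaving out 1 library gave 1574 to 1833 calls over all genes, in place of 1865. With only the clr4Δ libraries in the fit none passed in edgeR, and hht3 had a log2 change of 0.32 (adjusted p = 0.089). Over all genes 1063 were called in that fit. At 2.5 min none was called with this label by edgeR (unadjusted p under 0.05 for 0 of 10) or DESeq2, where 1.57% of all genes were.

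No member's response differed between the label clr4Δ and WT in edgeR (unadjusted p under 0.05 for 0 of 10) or DESeq2, where 2.62% of all genes were called; with the block hta1 (-0.33, adjusted p = 0.041) did. The block took the calls over all genes from 162 to 901. The response of hht3 differed between the labels pcr1Δ and clr4Δ (-0.56, SE 0.14, adjusted p = 0.015), where 2.15% of all genes were called and 1.81% were lower, a comparison made within one series. It did not pass without replicate 1 or 3 at 0 min or replicate 2 or 3 at 5 min of the label pcr1Δ, or replicate 2 or 3 at 0 min of the label clr4Δ (-0.53 to -0.47), nor with only the 4 compared groups in the fit (-0.57, adjusted p = 0.085). That of hhf3 was -0.54 (SE 0.17, adjusted p = 0.11) and passed with the block (adjusted p = 0.0042). Between the labels atf1Δ and clr4Δ none was called by edgeR (unadjusted p under 0.05 for 4 of 10) or DESeq2, where 2.48% of all genes were; hht3 had -0.37 (SE 0.14, adjusted p = 0.18) and hhf3 -0.35 (SE 0.17, adjusted p = 0.36). With the block 4 members passed there, hht3 among them (adjusted p = 0.011). Calls over all genes went from 153 to 764 of 6172 with that block.

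**Figure D4:**
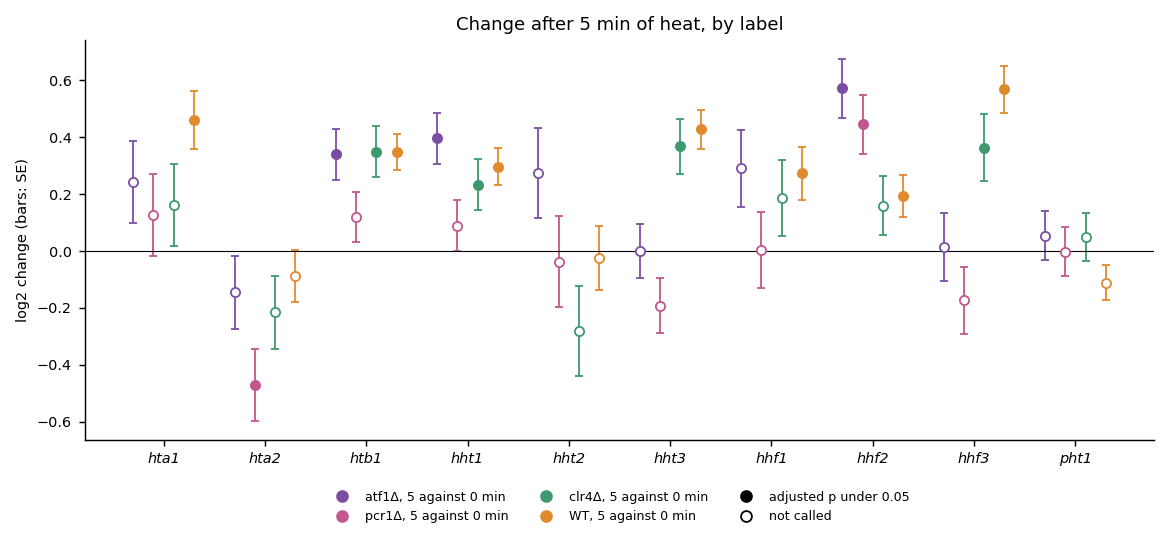
Log2 change of each core histone mRNA after 5 min of heat in the libraries labelled atf1Δ, pcr1Δ and clr4Δ and in WT; bars are SE and filled points passed at an adjusted p under 0.05. For hht3 and hhf3 the atf1Δ and pcr1Δ points lie between -0.19 and 0.01 and the clr4Δ and WT points between 0.36 and 0.57, while for hhf2 the atf1Δ and pcr1Δ points are the highest.

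The copy shares moved in different directions under the labels. The hhf3 share was 16.6 ± 1.09% at 5 min, against 20.6 ± 2.06% at 0 min, with the label atf1Δ (SD, n = 3 each), and 15.1 to 16.4%, against 18.2 to 20.1%, with the label pcr1Δ. The hhf2 share was 32.8 ± 2.08% at 5 min, against 27.7 ± 0.506% at 0 min, with the label atf1Δ and 32.4 ± 1.17%, against 25.6 ± 1.38%, with the label pcr1Δ. In the libraries labelled clr4Δ the hhf3 share was 28.1 ± 1.94% at 5 min, against 25.4 ± 3.24% at 0 min. For hta1 the share at 5 min had the higher mean under every label, with 45.5 to 53.1% (atf1Δ), 49.4 to 51.2% (pcr1Δ) and 48.5 to 51.4% (clr4Δ), against 38.9 to 47.1%, 37.4 to 46.3% and 43.1 to 44.2% at 0 min. These shares were not tested; the exact permutation test used for WT cannot give a p below 0.1 with 3 libraries against 3.

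Before heat, hht3 and hhf3 were also the members furthest below WT. With the label atf1Δ hht3 had 250.4, 249 and 246 CPM at 0 min, against 387 to 537 CPM in the 6 WT libraries (log2 difference -0.91, SE 0.09, adjusted p = 2.4e-10), and hhf3 had 157 to 181 CPM, against 235 to 350 CPM (-0.82, SE 0.11). With the label pcr1Δ the differences were -0.76 (SE 0.09) for hht3 and -0.81 (SE 0.11) for hhf3. In neither label did the libraries overlap with WT.

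Of the 10 members 7 were lower with the label atf1Δ (44.5% of all genes were called, 21.8% as lower) and 3 with the label pcr1Δ (38.3%, and 19.2% as lower), which were hht3, hhf3 and hta1. For hta1 the differences were -0.52 (atf1Δ) and -0.51 (pcr1Δ). The hta1 calls did not hold against WT of RNA1 alone (-0.27 and -0.25, adjusted p = 0.14 and 0.17), and with the label atf1Δ neither did that of hhf1 (-0.09, adjusted p = 0.63, in place of -0.39). The htb1 call with the label atf1Δ was lost against WT of RNA2 alone (-0.19, adjusted p = 0.090) and without any 1 of the 3 libraries labelled atf1Δ, replicate 3 of RNA1 or replicate 1 or 3 of RNA2 (-0.21 to -0.17). With the block hht2 (-0.25) was lower and hhf2 (0.15) higher with the label atf1Δ, and hta2 (-0.26) and hhf1 (-0.18) were lower with the label pcr1Δ. The hhf2 level was 261 ± 7.39 CPM with the label atf1Δ and 261 ± 20.6 CPM with the label pcr1Δ, between WT of RNA1 (201 ± 27.7 CPM) and of RNA2 (276 ± 17.9 CPM) (SD, n = 3 each). The mRNA of ams2, the S-phase activator of these genes, was 62.8 ± 6.38 CPM with the label atf1Δ and 65.4 ± 2.93 CPM with the label pcr1Δ, against 104 ± 9.12 and 129 ± 15.1 CPM in WT of RNA1 and RNA2; its part in the histone levels was not tested.

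With the label clr4Δ 8 members were higher than in WT at 0 min, where 24.6% of all genes were called and 14.3% were higher; the exceptions were htb1 and pht1. Against WT of RNA2 alone only hht2 passed, with 612, 552 and 616 CPM in the libraries labelled clr4Δ, against 394, 362 and 452 CPM in that series. Over all genes 230 of 6172 were called against RNA2 alone, in place of 1519. The hta1 call was lost without replicate 1 or 3 at 0 min of the label clr4Δ or replicate 3 of RNA1 (0.33 to 0.38), and that of hhf3 without replicate 1 or 2 of the label clr4Δ, replicate 3 of RNA1 or replicate 1 of RNA2 (0.25 to 0.28). The difference in level thus depended on which WT series was used.

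Over the 13 group means hht3 and hhf3 followed each other more closely than any other pair of members (Pearson's r of log2 CPM 0.99, n = 13 groups), followed by hht1 and hhf1 (0.96), while hht3 and hhf2 had -0.08. These groups share libraries' depth and series, and no p is attached. The genes outside the family most like the mean of the 9 members other than pht1 were SPBC16E9.15 (0.98), tim14 (0.97), but2 (0.97), erg31 (0.97) and bem46 (0.96).

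Of 8 genes that act on histone transcription, 5 fell and 1 rose in WT at 5 min, where 50.6% of all genes were called (1587 rose and 1537 fell). The kinase gene hsk1 (-0.76) and the F-box gene pof3 (-0.43), whose products are known to bring about the breakdown of Ams2, were lower. The genes slm9 (-0.21), hip3 (-0.19) and hip4 (-0.23) of the HIRA complex, which represses histone genes outside S phase, were lower as well, and hip1 of the same complex did not pass (-0.06). For hip3 the means were 118 CPM at 5 min, against 154 CPM at 0 min, in RNA1, and 161 CPM at both times in RNA2. The rise was that of teb1 (0.31), whose product binds telomere-like repeats, and ams2 did not pass (-0.04). At 25 min, where 67.3% of all genes were called, 1 of the 8 rose and 2 fell; ams2 fell (-0.72, adjusted p = 1.6e-06), with 63.4 ± 4.16 CPM, against 104 ± 9.12 CPM at 0 min.

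Of 18 replication-phase genes 6 rose and 6 fell at 5 min, a share of 66.7% beside 50.6% of all genes, among them spd1 (0.59), for an inhibitor of ribonucleotide reductase, dfp1 (-0.30), for the partner of the Hsk1 kinase, and mcl1 (-0.33). At 25 min 3 rose and 12 fell (66.7% lower, beside 33.5% of all genes), among them mik1 (-2.83), a kinase gene of the cell-cycle checkpoints, cdt1 (-1.34), for replication licensing, and dfp1 (-0.77). Their median log2 change was 0.07 at 5 min and -0.40 at 25 min, beside -0.01 and 0.02 over all genes.

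Of 20 histone chaperone and assembly genes 6 rose and 4 fell at 5 min (50%, near the 50.6% of all genes), with nhp6 (0.85), for an HMG-box protein that works with the FACT complex, scm3 (0.59), for the chaperone of centromeric H3, and pob3 (0.27), for a FACT subunit, among the rises. At 25 min 5 rose and 5 fell (50%, beside 67.3% of all genes), with nhp6 at 1.31, nap1, for an H2A–H2B chaperone, at -0.99 and hat1, for a histone acetyltransferase, at -0.69. Of 18 genes of H2A.Z exchange 4 rose and 4 fell at 5 min (44.4%), among them msc1 (0.53), swr1 (0.39), for the catalytic subunit that inserts H2A.Z, and swc2 (-0.52), for a subunit of the same complex. At 25 min 5 rose and 8 fell (72.2%, again near the share over all genes), with the helicase genes rvb1 (-0.59) and rvb2 (-0.34) lower and swc3 (0.50) higher. The centromeric H3 gene cnp1 fell by 0.25 at 5 min and 0.31 at 25 min.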

How the data were processed

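The deposited files hold raw counts of reads per gene for each of 39 mRNA libraries; per the submitters' processing notes Trimmomatic 0.33, Bowtie 0.12.9, STAR, bedtools 2.17.0 and deepTools were used with build ASM294v2, and their roles are not given in the sources used here. Second deposited files, for WT of RNA2 and the label clr4Δ (18 libraries), hold a signal whose values read as unscaled read depth summed over the bases of each gene, at a median of 49.8 units per count, so limma on log2(signal + 50) replaced the planned count test there. The labels' protocols give hot phenol extraction and KAPA mRNA HyperPrep libraries. Multimapping reads were 6.80 to 21.2% per library.

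Counts were fitted with edgeR 4.0.16 (R 4.3.3; minimum count 10, minimum total 15, 6172 genes kept, TMM scaling, one mean per group, 26 residual degrees of freedom) by the quasi-likelihood test with Benjamini-Hochberg adjustment over all genes. DESeq2 1.42.0 and limma 3.58.1 served as alternatives. The scripts were tested on simulated data. Sequences were read from RefSeq ASM294v3, whose gene models share a start or an end with the counted ones for 99.53% of 6813 genes, and both for 28.99%. Levels per length and copy shares used the counted spans, and the search for unique stretches used the RefSeq transcripts. The span and the transcript were 732 and 622 bases long for hhf3 and 772 and 827 for hhf1. They were 870 and 829 for hht1 and 778 and 700 for hht2. Orders of levels per length and ratios between histones are therefore given for the counted spans only. Same-numbered libraries of one strain's time course deviated together (correlation of deviations 0.145 to 0.775 in all 33 pairs). Differently numbered pairs had -0.642 to 0.368, with 7 of 66 over 0.1. A block on the number within each time course was therefore added after seeing the data, and "the block" means this one. With the label atf1Δ, replicates 2 and 3 had 0.348 and 0.368 across numbers, against 0.325 and 0.311 within them. With the label pcr1Δ they had 0.346 and 0.0897 across numbers, against 0.145 and 0.247 within them. For these 2 labels the number thus marks a pair less clearly. Across the deletion labels 12 of 48 same-numbered pairs exceeded 0.1.

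The members, gene lists and motifs were chosen with earlier results of these data known. All members are named; from each list the text names the 3 genes with the smallest p among those called at 5 and at 25 min, ams2 and cnp1, and, chosen after their values were seen, the other called regulators. The list names ccr2 and rnr2 were not matched. The upstream window of hta1 and htb1 is not reported here.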

Additional observations from a re-analysis of the deposited data

Results flagged for a closer look

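The 5 min response of hht3 and hhf3 differed between labels by a test of the difference itself (edgeR quasi-likelihood test, adjusted over all genes). For the label atf1Δ minus WT it was -0.43 for hht3 and -0.55 for hhf3 on the log2 scale. For the label pcr1Δ minus WT it was -0.62 for hht3 and -0.74 for hhf3. For the label pcr1Δ minus the label clr4Δ, within one series, it was -0.56 for hht3, and hhf3 did not pass there in the main fit. In the comparisons with WT the label cannot be told apart from the series. Both atf1Δ calls were lost without replicate 3 at 5 min of that label. The hht3 call against the label clr4Δ was lost in 6 of the 12 fits that left out 1 library.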

How the results depend on the processing

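Of 56 called member values, 417 of 453 recalculations under other settings kept direction and call, 36 lost the call and 0 reversed; with 1 library left out, 444 of 486 kept the call. Of 23 uncalled values given in the text, 24 of 178 recalculations passed and 7 reversed. Counts of members called moved as follows, and the cause was not tested. WT at 5 min had 4 with RNA2 only and 3 in the second files. With the replicate block within each time course the label atf1Δ had 6 at 5 min, the responses of pcr1Δ minus WT 5, clr4Δ minus WT 1, atf1Δ minus clr4Δ 4, pcr1Δ minus clr4Δ 2 and RNA1 minus RNA2 2, and the unheated level of pcr1Δ 5; it changed no other count by over 1.5 times. With a replicate block over whole series, atf1Δ minus clr4Δ had 1, pcr1Δ minus clr4Δ 2 and the copy shares 0 of 8. For the copy shares this was the exact test with flipped signs, where hta1, hta2, hht1 and hht2 had the smallest p it can give. With only the compared groups in the fit, atf1Δ had 5, clr4Δ 0 and pcr1Δ minus clr4Δ 0. Against WT of RNA2 only, the unheated level had 5 (pcr1Δ) and 1 (clr4Δ). Scaling by library totals gave pcr1Δ at 5 min 4, atf1Δ minus clr4Δ 1 and pcr1Δ minus clr4Δ 2.

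Leaving out 1 library gave 6 to 7 at 5 min and 6 to 8 at 25 min in WT, 1 to 3 for pcr1Δ, 1 to 7 for clr4Δ, 0 to 3 for atf1Δ minus WT, 2 to 3 for pcr1Δ minus WT, 0 to 1 for atf1Δ minus clr4Δ, 0 to 2 for pcr1Δ minus clr4Δ, 3 to 4 for the pcr1Δ level, 6 to 8 for the clr4Δ level and 2 to 7 for the copy shares. Values of uncalled members that reversed were hht2 in WT at 5 min (-0.11 to 0.0491 with 1 library left out), hht3 with the label atf1Δ (-0.0513 to 0.0555, -0.174 by library totals, -0.00280 with the replicate block within each time course), hhf3 with that label (-0.0459 to 0.0853, -0.159 by library totals), pht1 from 5 to 25 min (0.22 by library totals), hht3 in clr4Δ minus WT (0.0303 by library totals) and the unheated hhf2 level against RNA2 only (-0.0835 for atf1Δ and -0.0847 for pcr1Δ).

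Library totals moved the median of all genes by -0.17 in WT at 5 min and 0.27 from 5 to 25 min, and the share of called genes that rose was 28.2% in place of 50.8% at 5 min and 72.1% in place of 49.0% from 5 to 25 min. It was 40.3% in place of 54.9% from 2.5 to 5 min, 15.8% in place of 42.1% for atf1Δ, 25.8% in place of 45.6% for pcr1Δ, 38.7% in place of 53.7% for clr4Δ at 5 min and 55.9% in place of 74.0% for RNA1 minus RNA2. Over all genes WT at 5 min had 3124 calls, 1678 with RNA2 only and 1341 in the second files. Other counts of calls that moved by over 1.5 times with all libraries are given after the main one, in the order block over series, block within time courses, compared groups only. These were WT at 2.5 min 107 (273, 483 and 32; 71 by library totals and 42 in the second files) and clr4Δ at 2.5 min 97 (296, 582 and 55; 156 with DESeq2 and 51 in the second files). The responses were clr4Δ minus WT 162 (417, 901 and 50; 81 by library totals) and RNA1 minus RNA2 573 (971, 1406 and 335). With both blocks pcr1Δ minus WT 444 had 704 and 1088, atf1Δ minus clr4Δ 153 had 337 and 764, and pcr1Δ minus clr4Δ 133 had 225 and 494. With the block within time courses alone, atf1Δ 1846 had 2817, pcr1Δ 1691 had 2648, WT from 2.5 to 5 min 834 had 1558, atf1Δ minus WT 553 had 1107 and the clr4Δ level 1519 had 2787. The clr4Δ level had 2316 against RNA1 only and 230 against RNA2 only, and 1012 with the compared groups only; clr4Δ at 5 min, 1865, had 1063 with the compared groups only, and WT from 2.5 to 5 min had 273 so and 541 in the second files. Leaving out 1 library moved 5 of these counts by over 1.5 times. They were WT at 2.5 min (48 to 168, past it without replicate 2 or 3 of RNA2 at 0 min or any replicate at 2.5 min) and WT from 2.5 to 5 min (477 to 1004, without replicate 3 at 2.5 min or 1 at 5 min). The others were clr4Δ at 2.5 min (40 to 120, without replicate 1 or 2 at 0 min or 2 at 2.5 min), the clr4Δ level (827 to 1576, without replicate 1 of that label) and clr4Δ minus WT (64 to 265). The last moved so without replicate 3 of RNA1 at 0 min, 1 or 3 of RNA2 at 5 min, 1 or 2 of clr4Δ at 0 min or 1 or 3 of clr4Δ at 5 min.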
